A study of Homo sapiens with 12 samples.

Results

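The regions described here are the ChIP-seq peaks of Huh7 cells that lie in the darkest Giemsa-stained bands of chromosomes 1 to 22. A peak counts as a member when its summit falls in an hg19 band graded gpos100, the darkest of the 4 grey grades. The 10 ChIP lists together hold 1569855 peaks, of which 1508146 lie on chromosomes 1 to 22 and 185412 are members. The gneg bands, which stay pale and serve as the comparison, hold 776540. Huh7 is a human hepatocellular carcinoma line. In the cells used, a triple FLAG tag had been added by Cas9 editing where VPS72 translation ends, and drug-resistant colonies were expanded (their number in these libraries is not given in the sources used here), so both conditions carry the tag on the endogenous protein. The control group was infected for 24 h with lenti-HA virus, the empty vector of the design text. The overexpression group was infected for 24 h with lenti-VPS72-FLAG virus, so its FLAG signal can come from the endogenous and the lentiviral protein. Each group has 1 library for each of H3K4me1, H3K27ac, H2A.Z, its acetylated form (H2A.Zac), FLAG and input, 12 libraries in all. Since each group is a single library per antibody, differences between conditions have no replicate check, no test was made, and the 95% intervals given cover counting error only. FLAG ChIP of untagged cells was not analysed here, so FLAG peaks are not shown to be sites of VPS72 binding. The level of VPS72 itself was not checked here.

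Giemsa banding colours mitotic chromosomes. Dark bands are known as AT-rich, late-replicating chromatin with few genes, often long and tissue-restricted ones, while pale bands hold most housekeeping genes. VPS72 (YL1) belongs to the chromatin remodelling complexes SRCAP and TIP60, where it binds the histone variant H2A.Z. H2A.Z sits at promoters and enhancers, and its acetylated form marks the active ones. H3K27ac marks active promoters and enhancers, and H3K4me1 marks enhancers whether active or poised. The label "gene-poor" was checked in the GRCh38.p14 build, for which a RefSeq gene table was at hand. All 75 hg19 gpos100 bands have a gpos100 band of the same name there. These held 1128 protein-coding genes, 2.46 per Mb, against 9.48 per Mb in gneg bands, and the median gene was longer, 50.6 kb against 22.7 kb. The gene table is of another build than the peaks, so no gene is assigned to a peak below.

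In hg19 the 75 gpos100 bands lie on 17 chromosomes, with none on chromosomes 15, 17, 19, 20 and 22, and make up 461 Mb, 16% of the length of chromosomes 1 to 22. Single bands run from 3.10 to 15.2 Mb. The gneg bands number 389 and cover 1221 Mb. Members per list in the control were 11751 for FLAG, 22404 for H2A.Z, 7396 for H2A.Zac, 5519 for H3K27ac and 10083 for H3K4me1. With overexpression they were 93592 for FLAG, 5821 for H2A.Z, 7153 for H2A.Zac, 7264 for H3K27ac and 14429 for H3K4me1. The overexpression FLAG list alone supplies about as many members as the other 9 lists together. Read depth, recovered from the deposited values at an assumed genome size of 2.7 Gb, was 17880000 to 25020000 reads for the 8 histone libraries but 4380000 and 3060000 for control and overexpression FLAG, so FLAG members rest on far fewer reads. The 2 input lists placed 49 (control) and 58 (overexpression) peaks in gpos100 bands, 0 of them with a q of 0.05 or less. Their gpos100 over gneg density ratios were 0.621 (interval 0.445 to 0.851) and 0.768 (0.563 to 1.03).

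All 8 histone lists were thinner in the darkest bands than in pale ones. Among all deposited peaks, control H2A.Zac had 16 members per Mb against 35.9 per Mb in gneg bands, a ratio of 0.446 (interval 0.436 to 0.458). Control H3K27ac had 12 against 28.3 per Mb, a ratio of 0.423 (0.411 to 0.436), and control H3K4me1 21.9 against 55.9 per Mb, a ratio of 0.391 (0.383 to 0.399). These 3 marks thus had between 2.24 and 2.56 times as many peaks per Mb in pale bands. Control H2A.Z was the least uneven histone list, with 48.6 against 71.3 per Mb, a ratio of 0.682 (0.672 to 0.692). With overexpression the ratios were 0.511 for H2A.Z, 0.479 for H2A.Zac, 0.480 for H3K27ac and 0.458 for H3K4me1. Control FLAG was the most uneven of the 10 lists, with 25.5 against 89.5 per Mb, a ratio of 0.285 (0.279 to 0.290). Overexpression FLAG was the exception in the other direction, with 203 members per Mb against 197 per Mb in gneg bands, a ratio of 1.03 (1.02 to 1.04).

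The gradient was graded over the stain, not a step at the darkest class. Density fell at each step from gpos25 through gpos50 and gpos75 to gpos100 in 9 of 10 lists with all peaks, overexpression FLAG being the exception, and in 10 of 10 at a q of 0.05 or less. Control H3K4me1 at that limit had 12.4 peaks per Mb in gpos25, 5.94 in gpos50, 5.30 in gpos75 and 2.59 in gpos100 bands. Palest was not densest: the gneg value of that list, 9.60 per Mb, lay below its gpos25 value.

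**Figure D1:**
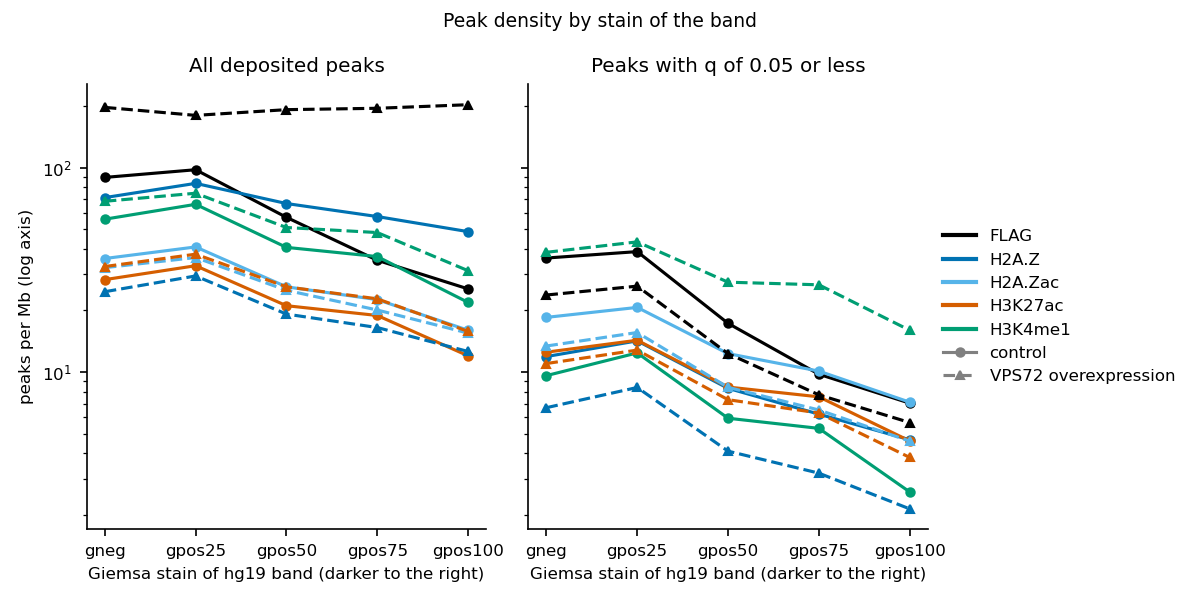
Peaks per Mb (log axis) in hg19 bands of 5 Giemsa grades for 10 ChIP lists, control as circles with solid lines and VPS72 overexpression as triangles with dashed lines. With all deposited peaks the overexpression FLAG line stays between 180 and 203 per Mb over the 5 grades; at a q of 0.05 or less it falls from gpos25 on, like the other 9.

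A q of 0.05 or less was met by a smaller share of members than of all peaks in each of the 10 lists. Deposited peaks go down to a p of 0.05, which makes this limit the stricter one. In the control it was met by 3247 FLAG members, 27.6% of them, where 37.3% of all FLAG peaks on chromosomes 1 to 22 met it. For H2A.Z it was 2149 members, 9.59% against 14.4%, and for H2A.Zac 3284 members, 44.4% against 49.1%. H3K27ac had 2119, 38.4% against 42.4%, and H3K4me1 1193, 11.8% against 16.2%. The widest gap in the control was therefore that of FLAG. With overexpression, 2611 FLAG members met the limit, 2.79% against 8.63% of the whole list. H2A.Z had 986, 16.9% against 24.4%, H2A.Zac 2116, 29.6% against 38.2%, and H3K27ac 1760, 24.2% against 31.1%. H3K4me1 had 7354 such members, 51.0% against 55.4%, the largest number of the 10 lists.

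Restricting the lists to stronger or wider peaks lowered the gpos100 over gneg ratio in 10 of 10 lists. Under the q limit of 0.05 it ranged from 0.195 for control FLAG to 0.415 for overexpression H3K4me1, and it was 0.238 for overexpression FLAG (interval 0.229 to 0.248). Among peaks at least 500 bp wide it ranged from 0.145 for control FLAG (0.139 to 0.151) to 0.546 for overexpression FLAG (0.534 to 0.558). Wide overexpression FLAG peaks thus kept a higher share of the pale-band density than any other list, and lost it under the q limit. The share of members at least 500 bp wide was 39.2% for control H2A.Zac against 46.4% of its gneg peaks, and 44.3% for overexpression H3K4me1 against 48.5%. For control FLAG it was 17.6% against 34.6%. At 2000 bp or more, control FLAG had 32 members and 2383 gneg peaks, a density ratio of 0.0356 (0.0243 to 0.0503), whereas control H3K27ac, with 263 and 2383, had a ratio of 0.292 (0.256 to 0.332).

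**Figure D2:**
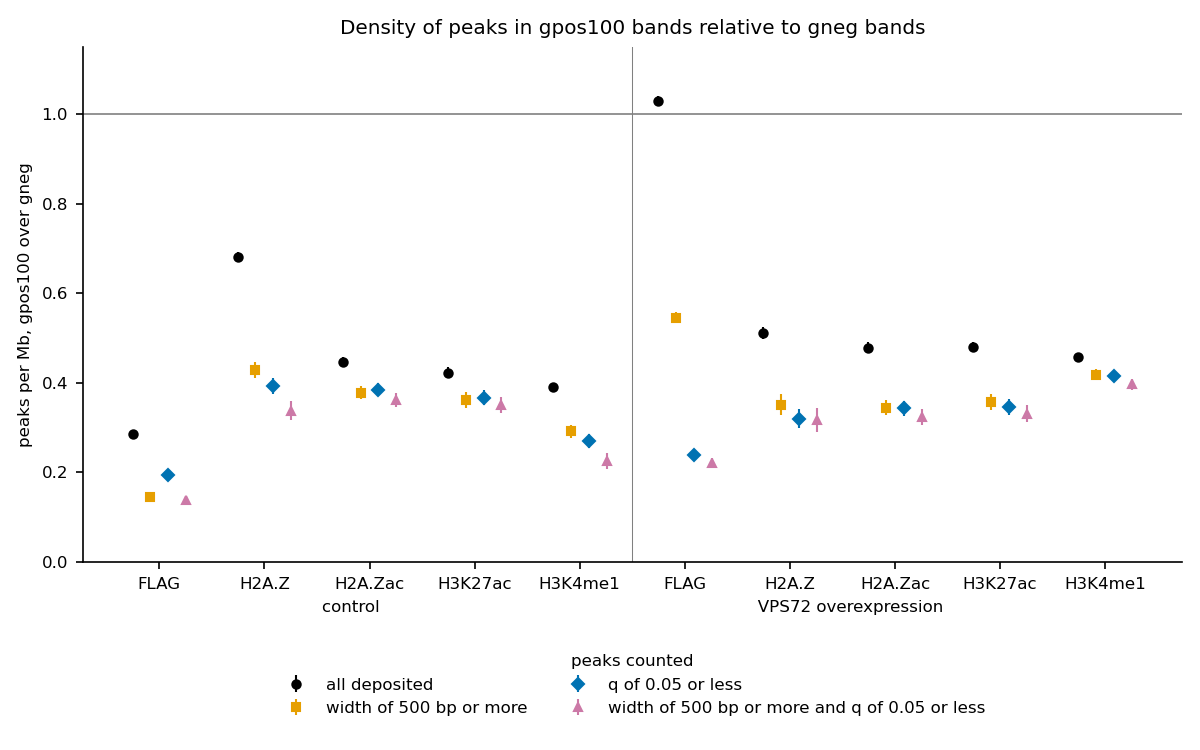
Density of peaks in gpos100 bands divided by that in gneg bands for each of 10 ChIP lists, under 4 choices of peaks, with exact 95% intervals (counting error only). All values lie below 0.7 except that of overexpression FLAG with all peaks, 1.03.

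Members with many reads at the summit were scarcer still. Reads at a summit are whole numbers recovered from the deposited fold and p. For control H2A.Z the ratio was 0.859 (0.814 to 0.907) for summits of 3 to 4 reads, 0.579 for 7 to 9, 0.310 for 10 to 14 and 0.230 (0.197 to 0.267) for 15 to 29. For H2A.Zac it went from 0.613 at 5 to 6 reads to 0.250 (0.230 to 0.270) at 30 or more in the control, and from 0.686 to 0.239 with overexpression. H3K27ac went from 0.532 to 0.248 and from 0.660 to 0.235 in the same order. The highest class of the other 2 histone antibodies holds few members, for instance 11 in control H3K4me1 (ratio 0.571, 0.268 to 1.11), and gives no order. FLAG differed in shape: the control ratio was lowest, 0.0964 (0.0884 to 0.105), at 7 to 9 reads, and was 0.210 (0.190 to 0.233) at 15 to 29 and 0.124 (0.0824 to 0.180) at 30 or more.

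Single reads made up most overexpression FLAG members. Of these, 67939 (72.6%) rested on 1 read at the summit, against 43.3% of gneg peaks of the list, and the other 9 lists had 0 peaks of 1 read in these bands. Peaks of 1 read were 1.73 times as dense in gpos100 as in gneg bands (1.71 to 1.75), those of 2 reads equally dense (1.01, 0.989 to 1.02), and those of 3 to 4 reads less dense (0.309, 0.301 to 0.316). The local background, which the peak caller sets from the surroundings and never below the genome average, was at that average for 85.4% of these members and 50.8% of the gneg peaks. In the control FLAG list the corresponding shares were 26.4% and 6.07%. With 3 or more reads the overexpression ratio was 0.259, close to the 0.264 of control FLAG under the same limit.

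**Figure D3:**
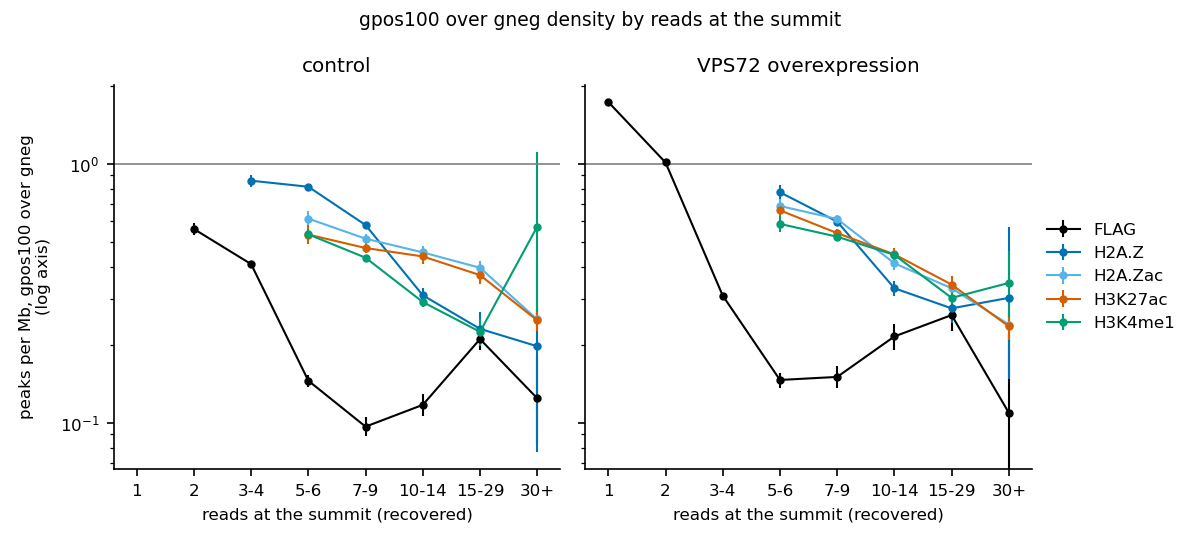
Density ratio of gpos100 to gneg bands (log axis) by the number of reads at the summit, with exact 95% intervals (counting error only), for 5 antibodies in control and VPS72 overexpression. Ratios fall from the weakest summits on, with the exception of thinly filled classes such as control H3K4me1 at 30 or more reads (0.571) and of FLAG, and single-read overexpression FLAG peaks stand at 1.73.

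Among peaks with a q of 0.05 or less, the median fold in dark bands was equal to or lower than that in pale bands in each list. The limit itself selects by strength and removes weak peaks from both band classes. These medians therefore cannot be weighed against the difference in number. The median fold of control H3K27ac members was 5.02 against 5.77 in gneg bands, and their median width 832 against 980 bp. Overexpression H3K4me1 had equal median folds, 3.54, and equal median reads, 12, in both band classes. For H2A.Z the median folds were 3.80 in gpos100 and 4.10 in gneg bands in the control, and 4.38 and 4.46 with overexpression. For control FLAG the median summit had 6 reads in gpos100 and 8 in gneg bands over a local background of 1.39 and 2.27 times the genome average. The highest fold of a member was 33.8 in both band classes for control H2A.Zac, but 17.4 against 25.1 in gneg bands with overexpression. For H3K27ac it was 37.0 against 42.3 in the control and 28.0 against 34.7 in the overexpression list. The highest control H3K4me1 fold was 6.83 against 11.7. A maximum tends to grow with the number of peaks, and gneg bands hold more, for control H3K4me1 68257 against 10083. The maxima are thus no like-for-like measure of strength.

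The lower density was seen chromosome by chromosome. With all peaks it was below 1 on 17 of 17 chromosomes in 9 lists, and on 10 of 17 for overexpression FLAG, whose values ran from 0.851 on chromosome 7 to 1.20 on chromosome 10. Held to a q of 0.05 or less, it was below 1 on 17 of 17 in all 10 lists. Chromosome 4 gave the lowest value at that limit for control H2A.Zac (0.300), for H3K27ac (0.224 in the control, 0.242 with overexpression) and for H3K4me1 (0.122 and 0.249). Chromosome 14 gave the highest value for H3K4me1 in both conditions, 0.733 and 0.699, and for control H2A.Zac, 0.657. When the 5 chromosomes without such a band were left out of the gneg side, ratios moved from 0.285 to 0.318 for control FLAG and from 0.423 to 0.454 for control H3K27ac, and stayed at 1.03 for overexpression FLAG.

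At a q of 0.05 or less, density fell in all 10 lists from 1 to 2 Mb outside a dark band, across its edge, to 2 to 3 Mb inside it. With all deposited peaks, overexpression FLAG instead rose from 195 to 204 per Mb over these distances. Control H3K4me1, at a q of 0.05 or less, had 7.28 peaks per Mb at 2 to 3 Mb outside a gpos100 band, 5.28 in the last Mb before its edge, 4.16 in the first Mb inside and 0.963 more than 3 Mb inside. Overexpression H3K4me1 had 33.9, 26.8, 22.8 and 9.24 per Mb at these distances. At the outer and innermost distance control H3K27ac had 9.69 and 3.01 per Mb, and overexpression H3K27ac 8.35 and 2.47. Farther from the edge there were exceptions. From 2 to 3 Mb to 1 to 2 Mb outside, H2A.Z, H2A.Zac and H3K27ac rose in both conditions, for instance control H2A.Z from 8.09 to 8.68 per Mb and overexpression H3K27ac from 8.35 to 8.55. More than 3 Mb inside, 2 lists were higher than at 2 to 3 Mb, control H2A.Z at 3.89 against 3.64 and control FLAG at 6.45 against 6.06. Band edges are set by microscopy and are placed on the sequence only roughly, and the mapped share of each band was not measured.

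**Figure D4:**
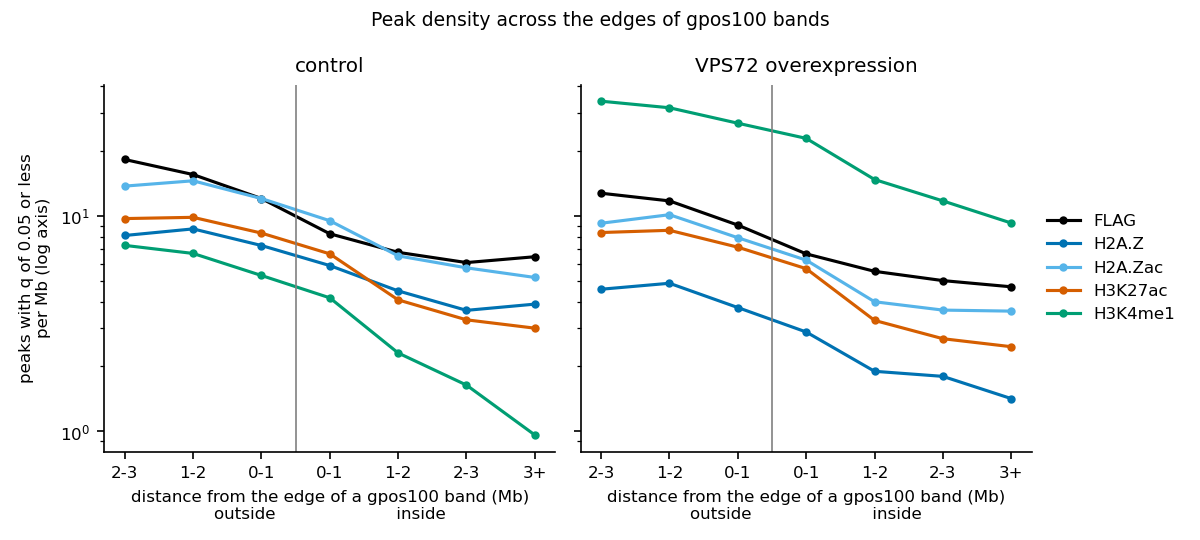
Peaks with a q of 0.05 or less per Mb (log axis) by distance in Mb from the nearest edge of a gpos100 band (grey line), outside to the left and inside to the right, for 5 antibodies. All 10 lines fall across the edge, control H3K4me1 from 5.28 to 4.16 per Mb and on to 0.963 in the interior, while some rise at the outermost or innermost distances, such as control H2A.Z (8.09 to 8.68 outside, 3.64 to 3.89 inside).

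Single bands differed widely among themselves. For control H3K27ac at a q of 0.05 or less the 75 bands ran from 0.536 per Mb (8q23.3) through a median of 4.09 to 14.3 per Mb (7p21.1), against a median of 11.2 over gneg bands. The gneg median was exceeded by 3 of the 75 bands, and 47 of 389 gneg bands lay below the gpos100 median. For H3K4me1 the median band had 1.62 per Mb in the control and 13.2 with overexpression, with 2q36.3 highest in both, at 12.2 and 48.2 per Mb. FLAG varied less, from 2.90 per Mb (3q26.1) to 15.7 (16q21) around a median of 6.61 in the control, and 0 of 75 bands reached the gneg median of 17.4.

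Bands at the top of the order were shared by marks and conditions. Counting peaks at least 500 bp wide with a q of 0.05 or less, control H3K27ac was densest in 7p21.1 (chromosome 7, 16500001 to 20900000), with 45 peaks or 10.2 per Mb. Next came 2q36.3 (chromosome 2, 226100001 to 231000000), with 50 peaks or 10.2 per Mb, and 12p12.1 (chromosome 12, 21300001 to 26500000), with 48 peaks or 9.23 per Mb. With overexpression, 2q36.3 had 42 H3K27ac peaks (8.57 per Mb) and 7p21.1 had 34 (7.73 per Mb), followed by 9q31.1 (chromosome 9, 102600001 to 108200000) with 42 (7.50 per Mb). The 2 leading bands were thus the same pair. H3K4me1 had 167 such peaks in 2q36.3 with overexpression (34.1 per Mb) and 31 in the control (6.33 per Mb). In 7p21.1 the numbers were 145 (33.0 per Mb) and 26 (5.91 per Mb). The band 12q21.33 (chromosome 12, 89000001 to 92600000) came next with overexpression, at 105 (29.2 per Mb), and 14q12 led in the control, with 68 (7.82 per Mb). In GRCh38.p14 the bands 7p21.1, 2q36.3, 12p12.1 and 9q31.1 hold 4.09, 5.10, 5.19 and 5.71 protein-coding genes per Mb, all above the gpos100 average of 2.46.

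Bands at the bottom were nearly bare. The H3K27ac list had 2 such peaks in 8q23.3 (chromosome 8, 112100001 to 117700000) in the control and 1 with overexpression. In 4q13.1 (chromosome 4, 59500001 to 66600000) it had 5 and 1, in 4q28.3 (chromosome 4, 131100001 to 139500000) 4 in the control, and in 1p21.1 (chromosome 1, 102200001 to 107200000) 2 with overexpression. In GRCh38.p14, 8q23.3 holds 2 protein-coding genes, the long genes CSMD3 and TRPS1, and 4q13.1 holds 4, among them ADGRL3 and EPHA5, which code for an adhesion receptor and an ephrin receptor. Control H3K4me1 had 0 such peaks in 13 of the 75 bands. Among these tied bands were 9p21.3 (chromosome 9, 19900001 to 25600000), 8q23.3 and 7q21.11 (chromosome 7, 77500001 to 86400000). With overexpression H3K4me1 had 0 in 9p21.3, 2 in 5p14.3 (chromosome 5, 18400001 to 23300000) and 3 in 3q26.1 (chromosome 3, 160700001 to 167600000). Over the 75 bands, gene density in GRCh38.p14 and peak density at the q limit had a Pearson's r of 0.674 and 0.669 for H3K27ac and 0.500 and 0.544 for H3K4me1 (control, then overexpression), a description over bands. The band 9p21.3 departed from this, with 4.74 protein-coding genes per Mb.

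Low bands were low for some marks more than for others. No H2A.Z peak of either condition with a q of 0.05 or less lay in 3q26.1, but 18 H2A.Zac, 11 H3K27ac and 20 FLAG peaks of the control did. The band 7q21.11 had 0 H3K4me1 and 6 H2A.Z peaks in the control beside 30 H2A.Zac and 26 FLAG peaks. Overexpression FLAG with all peaks, which is level over most bands (median 206 per Mb), had 131 per Mb in 3q26.1, the lowest of the 75 bands, and 139 per Mb in 7q21.11. Copy number and the mapped share of these bands were not measured, and their part in these values was not tested.

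In both conditions the same bands were rich and poor. Across the 75 bands at a q of 0.05 or less, Pearson's r between control and overexpression densities was 0.970 for H3K27ac, 0.893 for H2A.Zac, 0.890 for H2A.Z, 0.889 for H3K4me1 and 0.814 for FLAG. Between marks of the control it was 0.914 for H2A.Zac with H3K27ac, 0.820 for H3K27ac with H3K4me1 and 0.351 for FLAG with H3K27ac. These are descriptions over 75 bands that share genome, copy number, mapped share and, within a condition, chromatin preparation. Empty stretches were more common than in pale bands. Of 428 windows of 1 Mb laid in gpos100 bands, 210 (49.1%) had no control H3K4me1 peak at a q of 0.05 or less, against 150 of 1039 (14.4%) in gneg bands. For H3K27ac the shares were 23.4% and 5.58%, and with all 4 histone marks counted 9 windows (2.10%) and 3 (0.289%) were empty. The longest stretches without a control H3K4me1 or H2A.Z peak at that limit filled whole bands, 7q21.11 (8.90 Mb) and 3q26.1 (6.90 Mb).

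**Figure D5:**
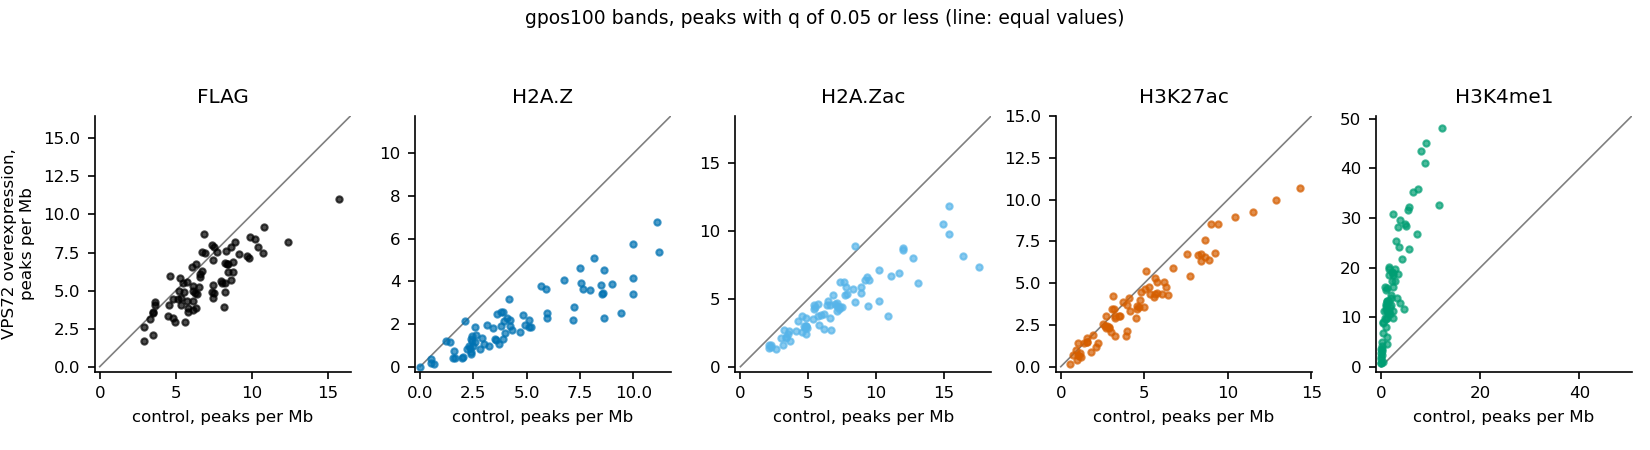
Peaks with a q of 0.05 or less per Mb in each of the 75 gpos100 bands (1 point per band), control on the x axis and VPS72 overexpression on the y axis, with a line of equal values, for 5 antibodies. H3K4me1 lies above the line in 75 of 75 bands and H2A.Z in 0 of 75.

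Marked places in dark bands carried fewer marks each. A place is a stretch of overlapping histone peaks of 1 condition, assigned to a band by its strongest summit. With all peaks, the control had 35692 places in gpos100 bands, of which 5536 (15.5%, interval 15.1 to 15.9) had 2 or more of the 4 histone marks, against 22.5% (22.3 to 22.7) in gneg bands. With overexpression it was 4180 of 27313 (15.3%, 14.9 to 15.7) against 21.5%. With peaks of a q of 0.05 or less the shares were 36.9% against 47.6% in the control and 21.3% against 27.9% with overexpression. At a width of 500 bp or more they were 35.2% against 43.7%, and 22.8% against 29.5%. The deficit grew with the number of marks. At a q of 0.05 or less in the control, places of 1 mark had a density ratio of 0.510 (0.491 to 0.528), of 2 marks 0.398, of 3 marks 0.272 and of 4 marks 0.0784 (0.0505 to 0.117). With overexpression the ratios were 0.470, 0.398, 0.271 and 0.159 (0.128 to 0.197).

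In the control, combinations that held H3K4me1 were thinner in dark bands than the same marks without it, except for H2A.Z with H3K27ac, which rests on 7 and 3 places. At a q of 0.05 or less, H2A.Z alone had a density ratio of 0.679 (0.630 to 0.731) and 902 places, H3K27ac alone 0.605 and 594 places, and H2A.Zac alone 0.547 and 1258 places. H3K4me1 alone, with 763 places, had 0.333 (0.308 to 0.359). H2A.Zac with H3K27ac had 0.456 (0.418 to 0.498), and the same pair with H3K4me1 0.218 (0.179 to 0.263). H2A.Z with H2A.Zac and H3K27ac had 575 places in gpos100 bands, 10.3% of all places there, and 14.4% in gneg bands, a density ratio of 0.304 (0.278 to 0.331). Adding H3K4me1 to these 3 left 25 places and a ratio of 0.0784. With overexpression the place classes were dominated by H3K4me1 alone, 6105 places or 66.9% of all in gpos100 bands and 63.0% in gneg bands, and its ratio was 0.458 (0.446 to 0.471). H2A.Z alone, H2A.Zac alone and H3K27ac alone then had ratios of 0.577, 0.560 and 0.534, and all 4 marks together 93 places and 0.159.

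As plain shares, histone marks met less often in dark bands, while the share divided by the length covered was higher there. Among control H2A.Z members within the q limit, the share on an H2A.Zac peak that met it too was 56.7% (54.6 to 58.8), against 74.0% (73.2 to 74.7) in gneg bands, and on H3K4me1 it was 3.44% against 9.35%. Of control H3K27ac members 65.7% against 75.2% overlapped H2A.Zac and 12.5% against 21.6% H3K4me1. With overexpression the last pair was 42.8% (40.5 to 45.2) and 46.7% (45.9 to 47.6), and H2A.Z on H2A.Zac gave 77.0% and 84.4%. The share of band length covered by the second mark differs as well, for H2A.Zac 0.651% of gpos100 and 1.92% of gneg length in the control. Divided by that length, the share of control H2A.Z on H2A.Zac was 87.1 times the cover in gpos100 and 38.6 times in gneg bands, and that of H3K27ac on H2A.Zac 101 and 39.2 times. A share cannot pass 100%, so the larger gneg cover caps the gneg value below both gpos100 values. The order for H2A.Zac is thus set by the cover and does not show that marks met more often in dark bands. For H3K27ac on H3K4me1 the values were 78.4 and 30 times.

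Whether control FLAG members lay on histone peaks less often than pale-band FLAG peaks depended on the limit. With all peaks, 15.8% (15.2 to 16.5) of control FLAG members overlapped a histone peak of the same condition, against 22.8% (22.6 to 23.1) in gneg bands. At a q of 0.05 or less in both lists it was 12% (10.9 to 13.1) against 13.6% (13.3 to 14.0), and at 500 bp or more 16.6% (15 to 18.3) against 16.1% (15.7 to 16.5), where the intervals overlap. With both limits it was 15.4% (13.7 to 17.4) against 13.4% (13.0 to 13.8), the opposite order. Histone peaks cover 1.10% of gpos100 and 3.13% of gneg length at the q limit, so relative to the length covered FLAG members met them 10.9 times and 4.36 times as often. By mark, control FLAG members at that limit were on H2A.Z in 8.38% and 8.24%, on H2A.Zac in 9.21% and 10.5%, on H3K27ac in 4.74% and 5.54% and on H3K4me1 in 0.862% and 2.78% of cases, in gpos100 and gneg bands. H2A.Z, the cargo of VPS72, and H3K4me1 thus stood at opposite ends, with share ratios of 1.02 (0.903 to 1.14) and 0.310 (0.214 to 0.451).

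With overexpression the shares in gpos100 bands were lower than in the control, at the q limit with overlapping intervals. The gneg share was lower with all peaks and at 500 bp or more, but higher at the q limit (control 13.6%). Of all 93592 FLAG members 4.60% (4.47 to 4.74) overlapped a histone peak, against 10.9% in gneg bands, and at a q of 0.05 or less 10.2% (9.09 to 11.4) against 15.5% (15.1 to 15.9). At 500 bp or more it was 3.35% (3.01 to 3.72) against 10.3% (10.1 to 10.6), so under each of these choices the plain share was lower in dark bands. With all peaks, histone peaks covered 3.25% of gpos100 and 7.34% of gneg length. Divided by this cover the shares were nearly level with all peaks, 1.42 and 1.49 times, and were 1.76 and 2.07 times at 500 bp or more. On H2A.Z the shares at the q limit were 4.52% and 5.41%. Relative to the H2A.Z cover at that limit these were 30.6 and 11.5 times, and so not level. Seen from the histone side, 12.8% (11.5 to 14.3) of control H2A.Z members carried a FLAG peak at the q limit, against 25.4% (24.7 to 26.1) in gneg bands, and with overexpression 12.3% against 20.1%. Control FLAG peaks at that limit covered 0.412% of gpos100 and 3.00% of gneg length, and overexpression FLAG peaks 0.369% and 1.85%. For H3K4me1 the shares with a FLAG peak were 2.43% against 10.2% and 1.29% against 5.77%.

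Between conditions, H3K4me1 had the largest ratio of the 5 antibodies in the dark bands at the q limit, but not over all peaks, where FLAG and H2A.Z differed more. Its control list had 1193 members at a q of 0.05 or less and its overexpression list 7354, 6.16 times as many (5.80 to 6.56), against 4.01 (3.93 to 4.09) in gneg bands. The ratio rose with the stain, from 3.50 in gpos25 through 4.63 and 5.04 to 6.16. It was above the gneg ratio on 15 of 17 chromosomes, and the overexpression value was higher in 75 of 75 bands, by 2.50 to 29 times in bands with a control peak. With all peaks the ratios were 1.43 and 1.22, and for summits of 10 reads or more 2.74 and 1.92, so the size depends on the limit while the order of the 2 band classes held under these 3 choices. Depths of the 2 libraries were 22620000 and 21760000 reads. With no replicate, a difference of condition and a difference of library cannot be told apart.

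Part of the overexpression H3K4me1 members overlapped no deposited control H3K4me1 peak. A missing peak call does not show that the mark was absent there, and its absence was not tested. Of the control H3K4me1 peaks on chromosomes 1 to 22, 16.2% met the q limit of 0.05, against 55.4% of the overexpression list. Of the 7354 overexpression members at a q of 0.05 or less, 3849 (52.3%, 51.2 to 53.5) overlapped no deposited control H3K4me1 peak, against 43.0% (42.5 to 43.4) in gneg bands. Control H3K4me1 peaks covered 0.852% of gpos100 and 2.50% of gneg length. Of these 3849, 14.3% lay on a control H2A.Z peak, 18.2% on H2A.Zac and 12.8% on H3K27ac, and their median width was 498 bp. Of the 3505 that overlapped one, 23.5%, 33.6% and 33.8% did so, and their median width was 884 bp. Members without a control H3K4me1 peak were thus narrower and less often on another control mark. The same held in gneg bands, where 12.7% and 38.4% lay on H3K27ac.

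At the q limit the other antibodies had lower numbers with overexpression. Of H2A.Z members at a q of 0.05 or less, the control list had 2149 and the overexpression list 986, which gives 0.459 (0.425 to 0.495) against 0.563 (0.548 to 0.579) in gneg bands, and 0 of 75 bands had more with overexpression. For summits of 10 reads or more the direction was opposite, 1135 and 1385 members or 1.22 (1.13 to 1.32). A fixed read number is not the same enrichment in both, since the genome average at a summit was 1.397 reads in the control and 1.64 with overexpression. Over all peaks the ratio was 0.260 (0.252 to 0.267), so it was below 1 under each limit not set in reads. H2A.Zac had a ratio of 0.644 against 0.723, and H3K27ac 0.831 (0.779 to 0.885) against 0.881 (0.861 to 0.902), but 1.32 against 1.16 with all peaks. FLAG had 3247 and 2611, 0.804 (0.763 to 0.847) against 0.657 (0.648 to 0.667), whereas with all peaks it was 7.96 against 2.20. The 7.96 includes 67939 overexpression members of 1 read, which the control list could not hold at its depth. For H3K27ac and FLAG, then, the choice of peaks sets whether overexpression appears higher or lower.

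At the q limit, control members were found again less often than pale-band peaks. With both lists at a q of 0.05 or less, 68.1% (66.0 to 70.0) of H3K27ac members overlapped one with overexpression, against 73.2% (72.5 to 73.9) in gneg bands. H3K4me1 had 75.0% against 82.2%, H2A.Zac 53.2% against 61.3%, FLAG 37.9% against 41.0% and H2A.Z 29.2% against 39.2%. H2A.Z members had the lowest share of the 5 antibodies. Overexpression H3K27ac peaks at that limit covered 0.411% of gpos100 and 1.28% of gneg length. For H2A.Z the cover was 0.148% and 0.470%, and for FLAG 0.369% and 1.85%. At 500 bp or more FLAG went the other way, 51.8% (49.6 to 53.9) against 48.8% (48.3 to 49.4). With both limits the FLAG shares were 60.3% (57.8 to 62.8) against 47.3% (46.7 to 47.9). Allowing any deposited overexpression peak, the H2A.Z shares were 50.5% and 63.4%.

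The strongest members of the histone lists were gathered in 1 band. Of the 24 histone peaks named by rule, the 3 with the highest −log10 q in each of 8 lists, 22 lay in 14q12 (chromosome 14, 24600001 to 33300000), which makes up 1.89% of gpos100 length. The fold at these peaks is the authors' ratio of summit to local background. The first H3K27ac member of both lists (chromosome 14, 31675120 to 31678196 in the control) had folds of 31.0 and 22.2 and overlapped FLAG, H2A.Z and H2A.Zac peaks, and with overexpression H3K4me1 too. Second was one at 31492788 to 31497116 of chromosome 14, with folds of 26.5 and 20.0. For H2A.Z the first in both lists lay at 32028890 to 32031318 of chromosome 14. Its control fold was 8.21 and its overexpression fold 6.93, and it overlapped all 4 other antibodies in both. The first control H2A.Zac member (chromosome 14, 24663959 to 24666063) had folds of 33.8 and 15.9. The H3K4me1 leaders sat close together, at 32410373 to 32413700, 32434093 to 32436783 and 32437247 to 32439484 of chromosome 14, with control folds of 6.20, 6.25 and 6.56 and overexpression folds of 6.41, 6.43 and 6.61.

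Local background moves with this. Between 31.6 and 32.6 Mb of 14q12 the median local background was 3.90 times the genome average for control H3K27ac, 3.92 with overexpression, 3.87 and 4.07 for H2A.Z and 5.59 and 5.55 for FLAG, whereas between 28.6 and 29.6 Mb it was 1.00 for both H3K27ac lists. A higher read level raises −log10 q at a given fold. By −log10 q, 13 to 25 of the 100 strongest members of a histone list were in 14q12, and by fold 7 to 11. Whether extra copies of this segment give this level was not tested. The lists of a condition may take this background from the same input library. The levels are therefore not independent measures for each antibody. Leaving 14q12 out of the comparison moved the density ratio of control H3K4me1 from 0.391 to 0.381 and that of control H3K27ac from 0.423 to 0.417.

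Outside 14q12 the leaders were spread over bands. These were looked up after the list above had been seen. For control H3K27ac the leader was in 6q12 (chromosome 6, 64279859 to 64284539), with a fold of 37.0, 122 reads and all 4 other antibodies on it, and a fold of 17.0 with overexpression. For overexpression H3K27ac it was in 3q24 (chromosome 3, 147109754 to 147112988), with folds of 28.0 and, in the control, 30.7. H2A.Zac led in 4q28.3 (chromosome 4, 137219797 to 137220691) in the control, with folds of 21.2 and 9.12, so a band among the poorest in H3K27ac held it. The widest H3K27ac members lay in 14q21.1 (chromosome 14, 38055055 to 38066426), 11372 bp in the control and 10961 bp with overexpression, with folds of 19.5 and 17.5. That band holds 11 protein-coding genes in GRCh38.p14, among them that of FOXA1, a pioneer factor of liver cells. No distance from the peak was measured, and none of these genes is assigned to it.

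The FLAG leaders differed from those of the histone marks. In the control they lay in 3p24.3 (chromosome 3, 20589075 to 20590431), 5q34 (chromosome 5, 167285487 to 167287669) and 6q22.31 (chromosome 6, 125709191 to 125711299). Their folds were 20.6, 15 and 16.2 there, and 12, 16.7 and 12.1 with overexpression. Each overlapped H2A.Zac or H3K27ac, and none an H3K4me1 peak. With overexpression they lay in 6q12 (chromosome 6, 64322599 to 64323270), with a fold of 22.6 on 29 reads, in 2q22.3 (chromosome 2, 148584161 to 148584972), with a fold of 20.6 on 32 reads, and in 14q12 (chromosome 14, 32169549 to 32170374), with a fold of 11.8. Folds in the control were 13.0, 14.0 and 8.54, so all 6 were found in both conditions. The first 2 overlapped no histone peak of the same condition. None of the 30 peaks named by rule overlapped an input peak. The input lists held only 49 and 58 peaks in gpos100 bands, too few for this to be a check on the named peaks.

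Places with all 4 histone marks at a q of 0.05 or less in both conditions were rare, 6 in gpos100 bands, or 0.0130 per Mb, against 271 or 0.222 per Mb in gneg bands. They lay in 2 bands. The one in 2q36.3 (chromosome 2, 227658479 to 227666653) had H3K27ac folds of 27.4 (control) and 20.5 (overexpression), and H3K4me1 folds of 4.02 and 7.46 in the same order. It also carried FLAG, at folds of 3.82 and 2.53. The other 5 lay in the high-background part of 14q12, between 32028883 and 32481144 of chromosome 14, with control H3K27ac folds of 4.97 to 11.8. Of these 5, 1 carried FLAG, at folds of 6.23 and 9.55, the place of the strongest H2A.Z member.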

How the data were processed

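Peak lists of 10 ChIP and 2 input libraries from Huh7 cells were used as deposited. Per the submitters' processing notes, Trimmomatic, FastQC, BWA and MACS2 were used, with no versions, and both hg19 and hg38 are named. The deposited coordinates fit hg19: all 22 autosomes lie within it, 14 run past the GRCh38 end, and 10 of 10 ChIP lists name the hs37d5 contig. The narrowPeak files of the authors give each peak a fold over local background (a ratio), −log10 p and −log10 q, a score and a summit position. The smallest deposited −log10 p is 1.30 to 1.31, a p of 0.05. Genotype labels of the overexpression libraries other than input run from VPS73 to VPS77 where titles say VPS72, and peak names of the control H3K4me1 list read "H3k3me1"; groups follow the titles.

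Each peak was assigned by its summit to an hg19 band of circlize 0.4.16 (R 4.3.3). Densities are peaks per Mb of band, and density ratios have exact conditional intervals, shares Wilson intervals and ratios of shares log-scale intervals. Overlap means 1 bp or more. Reads at the summit and local background were recovered from fold and p (tolerance 0.002, at least 99.968% of peaks of each ChIP list), which gave depths of 3060000 to 25020000 reads at an assumed 2.7 Gb. The scripts were tested on simulated data. Gene counts come from the RefSeq GRCh38.p14 table. Regions named were the 3 members of each list with the highest −log10 q, the places with 4 marks in both conditions (at most 6), and the 3 densest and 3 sparsest bands for H3K27ac and H3K4me1 per condition. The members, lists and rules were chosen with earlier results of these data known. Alternatives were a q limit, a 500 bp limit, the midpoint, band edges left out, 14q12 left out, a 50% overlap, limits on reads and fewer chromosomes. No hg19 sequence or annotation was used here, so no sequence or nearest gene is given, and densities are per Mb of band, unmapped stretches included. Computation was in Python 3.11.15 with pandas 2.3.3, numpy 2.4.6 and scipy 1.17.1, and plots were drawn with matplotlib 3.10.9.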

Additional observations from a re-analysis of the deposited data

How the results depend on the processing

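Values over all deposited peaks are the starting point, lists are in the order FLAG, H2A.Z, H2A.Zac, H3K27ac, then H3K4me1, and the cause of a move was not tested. The gpos100 over gneg density ratio at a q of 0.05 or less was 0.195, 0.392, 0.385, 0.367 and 0.270 for control lists, then 0.238, 0.320, 0.343, 0.346 and 0.415 for overexpression lists. At 500 bp or more it was 0.145, 0.429, 0.377, 0.362 and 0.292, then 0.546, 0.351, 0.344, 0.357 and 0.418. Overexpression FLAG, 1.03 over all peaks, changed direction under both, and with 3 or more reads at the summit, where it was 0.259 (control FLAG 0.264). Without 1 Mb at each band edge the ratios were 0.221, 0.647, 0.362, 0.340 and 0.292, then 1.01, 0.440, 0.402, 0.401 and 0.349. On the 17 chromosomes with a gpos100 band they were 0.318, 0.724, 0.480, 0.454 and 0.417, then 0.553, 0.509, 0.508 and 0.479 for the 4 histone marks. Without 14q12 control H3K4me1 had 0.381. The change with overexpression in gpos100 divided by that in gneg bands was 3.62, 0.749, 1.07, 1.13 and 1.17. It became 1.22, 0.814, 0.891, 0.943 and 1.54 at the q limit, 3.77, 0.820, 0.912, 0.986 and 1.43 at 500 bp, and 1.52, 1.09, 0.928, 0.997 and 1.43 with 10 or more reads. H2A.Zac thus went from above to below 1 under these 3 limits. H3K27ac did so too and H2A.Z rose above 1 under the last, but with intervals that include 1 (H3K27ac 0.881 to 1.01, 0.921 to 1.06 and 0.938 to 1.06, H2A.Z 0.999 to 1.18), so no change of direction is shown for these. On the 17 chromosomes it was 3.25 for FLAG. The ratio of shares of places with 2 or more marks, gpos100 over gneg, was 0.688 in the control and 0.711 with overexpression, 0.775 and 0.763 at the q limit, and 0.804 and 0.773 at 500 bp. The ratio of shares, gpos100 over gneg, of FLAG peaks on a histone peak, 0.693 and 0.422, was 0.879 and 0.657 at the q limit and 1.03 and 0.324 at 500 bp. With overexpression it was 0.674 with 3 or more reads and 0.393 when an overlap had to span at least 50% of the shorter peak. The same ratio for control peaks found again was 0.744, 0.868 and 0.929 for H2A.Z, H2A.Zac and H3K27ac at the q limit. At 500 bp it was 1.06, 0.753, 0.880, 0.952 and 0.929, and with the 50% overlap 0.885, 0.514 and 0.880 for FLAG, H2A.Z and H3K4me1. Assigning peaks by midpoint in place of summit moved 0 of 10 density ratios. The limits on reads and the restriction to 17 chromosomes were chosen after seeing the data. Depth limits the FLAG lists most, since 72.6% of overexpression FLAG members rest on 1 read. No paired analysis was possible because each group has 1 library.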
